A study of Mus musculus with 4 samples.

Results

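The genes described here encode 10 enzymes and partner proteins that write DNA methylation and repressive histone methylation: Dnmt1, Dnmt3a, Dnmt3b, Uhrf1, Uhrf2, Ezh1, Ezh2, Suv39h1, Suv39h2 and Setdb1. They were chosen by name, as the spots that are not controls and whose gene name in the scanner files equals one of these symbols. This gave 17 spots, each with a probe of its own, among 39429 probes and 31704 gene names in all. RNA came from mouse embryonic fibroblasts (MEFs), connective tissue cells grown from embryos, which were either p53+/+ (wild-type, WT) or p53-/-. Each genotype was kept without or with doxorubicin, an anthracycline that traps topoisomerase II on DNA and leaves double-strand breaks. Each of the 4 conditions was measured on 1 one-color Agilent array. The labels give no dose, time, embryo or passage for the arrays. All 4 arrays were on 1 slide, so the place on the slide and the condition cannot be told apart. With 1 array per condition there was no replicate and no test, and a value was called higher or lower here only as a fold between single arrays.

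Methyl groups on CpG sites are copied to the new strand after replication by DNMT1, which UHRF1 brings to hemimethylated DNA, while DNMT3A and DNMT3B place them on sites that carried none. EZH1 and EZH2 are the alternative catalytic subunits of Polycomb repressive complex PRC2, which methylates histone H3 on lysine 27 (H3K27). SUV39H1, SUV39H2 and SETDB1 methylate histone H3 on lysine 9 (H3K9), the mark bound by HP1 proteins in heterochromatin. In fibroblasts, several of these genes are known to be transcribed in dividing cells and to be bound by E2F factors, and Polycomb is known to silence the Cdkn2a locus.

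The promoter search is given first, because finding the letters does not use the array values. It was not blind to them, since the genes were chosen with earlier results of these data known. RefSeq start sites of assembly GRCm38.p6 gave 16 windows for the 10 genes, from 250 bases before to 50 bases after a start. The letters TTTCCCGC, TTTGGCGC, TTTCGCGC and TTTGCCGC, which are forms of the E2F site, were looked for on both strands. Dnmt1, Uhrf1, Ezh2 and Suv39h1 held such a match and the other 6 genes did not, whereas 2.26% of all 32851 windows and 4.54% of the 10306 genes with a window that were measured on all 4 arrays held one. The matches are printed because these same 4 genes recur in the expression results. Each line runs 5′ to 3′ on the strand of the gene, with up to 11 bases on either side and the match in capitals. In Dnmt1 (upstream) and Suv39h1 the match lies on the opposite strand, so the capitals are its reverse complement.
Dnmt1, upstream: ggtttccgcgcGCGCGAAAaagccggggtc
Dnmt1, after the start: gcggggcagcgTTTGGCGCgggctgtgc
Uhrf1: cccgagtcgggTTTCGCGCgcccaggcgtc
Ezh2: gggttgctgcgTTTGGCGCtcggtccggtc
Suv39h1: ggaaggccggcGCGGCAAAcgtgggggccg

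Counting the first transcribed base as 1 and the base before it as -1, the matches of Dnmt1 began at -219 and 34 (chr9:20952824-20952853 and chr9:20952574-20952601, gene on the minus strand). The match of Uhrf1 began at -185 (chr17:56304117-56304146, plus strand), that of Ezh2 at 4 (chr6:47595009-47595038, minus strand) and that of Suv39h1 at -64 (chrX:8074407-8074436, minus strand). Dnmt1 had 3 windows, Uhrf1 and Suv39h1 had 2 each, and Ezh2 had 1, and the matches lay in 1 window of each gene. Dnmt3a also had 3 windows and held no match. The other motifs of cell cycle promoters were more common. CCAAT, the NF-Y box, was found in Dnmt1, Uhrf1, Ezh2, Suv39h1 and Setdb1, and in 41.1% of all genes in the table. TTTGAA, a form of the CHR element, was found in Dnmt1, Dnmt3b and Suv39h2, and in 20.2% of all genes. No match of an E2F form overlapped a CCAAT or TTTGAA match. A match is a description of letters and was not tested as a binding site.

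Levels are given as the processed signal of a probe divided by the 75th percentile of its array, so that 1 is the level of the 75th percentile. These percentiles were signals of 1819 to 2421. All 10 genes had a probe that was well above background on all 4 arrays, which was the case for 16513 gene names. Repeat spots of 253 probes that are printed 10 times gave an SD of 0.11 for a log2 ratio between arrays, and 2 conditions were set apart only where they differed by at least 0.23, or 2 SDs. This spread covers spots on an array and not cultures. In bulk RNA, fewer cells that express a gene and less RNA per cell cannot be told apart. Trp53 itself had relative signals of 0.592 and 1.89 in WT MEFs without and with doxorubicin and of 0.235 and 0.224 in p53-/- MEFs. The p53-/- levels were the lower ones, in the direction of the labels, although the sources do not say whether this probe lies in the deleted part. The fibroblast markers Col1a1, Col1a2, Col3a1, Pdgfrb, Thy1 and Vim were well above background on all 4 arrays.

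Some markers differed with doxorubicin on the same arrays. Of the 6 fibroblast markers, 1 was at least 2-fold lower in each genotype, namely Pdgfrb, a growth factor receptor, by 5.43-fold in WT and 3.33-fold in p53-/- MEFs. The collagen genes Col3a1 (-0.73 in WT and -0.12 in p53-/- MEFs) and Col1a2 (-0.48 and -0.80) had smaller log2 ratios. The rest of the fibroblast markers were not lower in both genotypes. They had 0.25 and 0.80 for Thy1, 0.26 and -0.25 for Col1a1, and 0.02 and -0.04 for Vim. Of the 10 markers of leukocytes, endothelium and epithelium, Cdh5 and Epcam were not well above background on any array, and Ptprc, Itgam, Pecam1 and Kdr were on all 4. Their log2 ratios to doxorubicin were 0.22, 0.46, -0.62 and 0.20 for WT and 0.18, -0.37, -0.13 and -0.35 for p53-/- MEFs. For Krt5, an epithelial keratin, and Cd68, a macrophage marker, WT MEFs with doxorubicin were the single condition well above background. Krt5 had relative signals of 0.0256 and 0.523 in WT MEFs without and with doxorubicin, and under doxorubicin it was at least 13.9-fold lower in p53-/- than in WT MEFs, while its second probe was not well above background on any array. Cd68 was at least 4.25-fold higher in WT MEFs with the drug than without it. Lyz2 had -0.57 in WT MEFs and was at least 1.52-fold lower with doxorubicin in p53-/- MEFs. Cdh1 was well above background on the 2 treated arrays only, but in neither genotype did its bound hold against the brightest negative control spot. The summed signal, here not scaled between arrays, ran from 26636 to 32118 over the 4 conditions for the leukocyte markers and from 5449 to 7593 for the endothelial ones. For the epithelial ones it ran from 93.6 to 1035, where the highest was doxorubicin-treated WT MEFs. Itgam (26264 to 31691) made up most of the leukocyte sum, Kdr (5269 to 7434) most of the endothelial one and Krt5 (951) most of the highest epithelial one. The sums therefore say little about the other markers. The part of other cells in the results was not tested.

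Dnmt1, the maintenance methyltransferase, had relative signals of 0.986 and 0.254 in WT MEFs without and with doxorubicin, and of 2.52 and 3.42 in the p53-/- cells. WT MEFs with doxorubicin were the lowest and p53-/- MEFs with doxorubicin the highest, and all neighbors in this order were set apart. With doxorubicin Dnmt1 was 3.88-fold lower in WT MEFs (log2 ratio -1.96) and 1.36-fold higher in p53-/- MEFs (0.44). Without doxorubicin it was already 2.55-fold higher in p53-/- than in WT MEFs, and with doxorubicin 13.4-fold higher.

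Uhrf1, which reads hemimethylated CpG and recruits DNMT1, had the widest range of the 10 genes. Its relative signals were 3.94 and 0.184 in WT MEFs without and with doxorubicin and 9.42 and 7.29 in p53-/- MEFs. The doxorubicin-treated WT array was far below the other 3. With doxorubicin it was 21.4-fold lower in WT MEFs (log2 ratio -4.42), and of 17513 genes measured in that comparison 4 had a lower ratio. In p53-/- MEFs the fold was 1.29 in the same direction (-0.37), and p53-/- exceeded WT MEFs by 39.6-fold under doxorubicin and 2.39-fold without it. A dim second probe, spread over chr17:56451668-56452321 of mm9, was not well above background in doxorubicin-treated WT MEFs. By this probe Uhrf1 was at least 1.15-fold lower in WT MEFs with doxorubicin, a bound that did not hold against the brightest negative control spot, and at least 2.89-fold higher in p53-/- than in WT MEFs under doxorubicin.

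Uhrf2, the paralog of Uhrf1, had relative signals of 4.03 and 2.62 in WT MEFs and of 5.76 and 5.01 in p53-/- MEFs, without and with doxorubicin. The order of the conditions was that of Uhrf1, but the 2 p53-/- arrays were not set apart and no comparison reached 2-fold. Its log2 ratio to doxorubicin was -0.62 in WT and -0.20 in p53-/- MEFs. The other Uhrf2 probe went the opposite way, with 0.25 and 0.43. For Uhrf1 against Uhrf2, the log2 ratios in WT MEFs differed by -3.80, and those in p53-/- MEFs by -0.17.

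**Figure D1:**
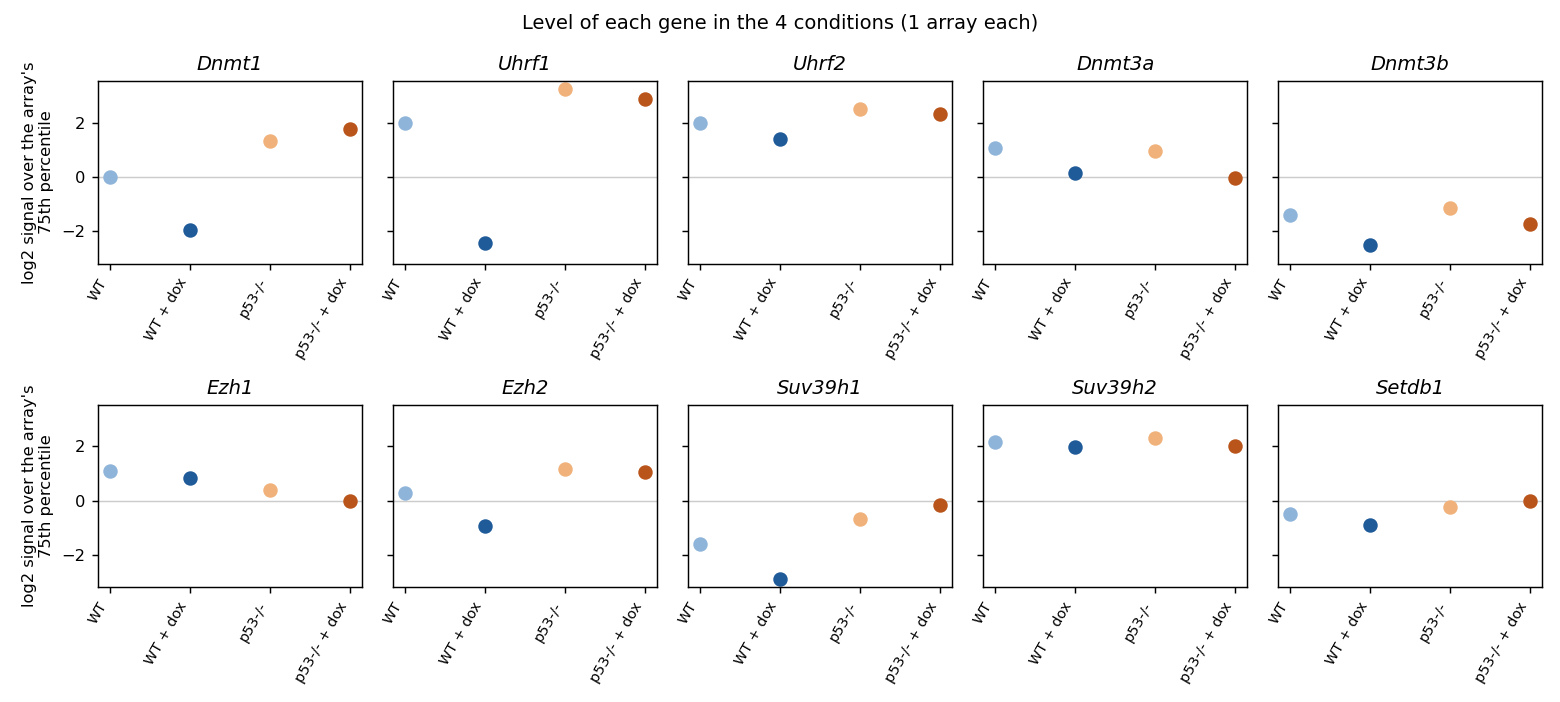
Level of each of the 10 genes in the 4 conditions, as log2 of the processed signal over the array's 75th percentile (0 is the 75th percentile), 1 point per array. WT MEFs with doxorubicin are the lowest condition for 8 genes, although for Suv39h2 by less than the spread of repeat spots, and Ezh1 is lowest in p53-/- MEFs with doxorubicin.

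The de novo methyltransferases behaved unlike Dnmt1. Dnmt3a had relative signals of 2.10 and 1.11 in WT MEFs and of 1.92 and 0.961 in p53-/- MEFs, without and with doxorubicin. Both untreated arrays were high and both treated arrays low, and the genotypes were not set apart in either state. The log2 ratio to doxorubicin was -0.91 in WT and -0.998 in p53-/- MEFs, just short of 2-fold, and the difference of 0.08 was below the spread of repeat spots.

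Dnmt3b had relative signals of 0.378 and 0.174 in WT MEFs and of 0.456 and 0.301 in p53-/- MEFs on its brightest probe. Both treated arrays were below their untreated ones. It was 2.17-fold lower with doxorubicin in WT MEFs (log2 ratio -1.12) and 1.52-fold lower in p53-/- MEFs (-0.60). This call rested on the probe, since on the other 2 probes of Dnmt3b the ratios were -0.35 and -0.79 (WT) and -0.81 and -0.79 (p53-/-). All 3 probes were lower with doxorubicin in both genotypes, and they disagreed on the genotype with the lower ratio.

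Ezh2 and Ezh1, the catalytic subunits of PRC2, went apart. Ezh2 had relative signals of 1.22 and 0.525 in WT MEFs and of 2.26 and 2.11 in p53-/- MEFs, without and with doxorubicin. It was 2.32-fold lower with doxorubicin in WT MEFs (log2 ratio -1.22), while the 2 p53-/- arrays were not set apart (-0.10). The excess of p53-/- over WT MEFs was 1.86-fold without doxorubicin and 4.01-fold with it.

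Ezh1, known as the form of less proliferative cells, had relative signals of 2.15 and 1.79 in WT MEFs and of 1.33 and 1.0 in p53-/- MEFs. Here the p53-/- arrays were the low ones, by 1.62-fold without and 1.79-fold with doxorubicin, and no comparison reached 2-fold. A second Ezh1 probe gave smaller ratios in the same direction (-0.25 and -0.57 for p53-/- over WT MEFs, without and with doxorubicin), and the last one was not well above background on any array. On the log2 scale, the p53-/- to WT ratio of Ezh2 exceeded that of Ezh1 by 1.59 without and 2.84 with doxorubicin.

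Among the H3K9 methyltransferases, Suv39h1 had relative signals of 0.333 and 0.135 in WT MEFs and of 0.627 and 0.902 in p53-/- MEFs, without and with doxorubicin. All 4 arrays were set apart, in the same order as for Dnmt1. It was 2.47-fold lower with doxorubicin in WT MEFs (log2 ratio -1.30) and 1.44-fold higher in p53-/- MEFs (0.52). Under doxorubicin it was 6.69-fold higher in p53-/- than in WT MEFs.

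The probes of its paralog Suv39h2 disagreed. The bright probe (chr2:3373186-3373245 of mm9) had relative signals of 4.53 and 3.99 in WT MEFs and of 4.92 and 4.06 in p53-/- MEFs, and none of the neighbors in the order of conditions was set apart. The dim probe (chr2:3375594-3375653) had relative signals of 0.0498 and 0.0215 in WT MEFs and of 0.123 and 0.251 in p53-/- MEFs. It was not well above background in doxorubicin-treated WT MEFs. By the dim probe, Suv39h2 was at least 2.04-fold lower with doxorubicin in WT MEFs, 2.04-fold higher with it in p53-/- MEFs, and at least 10.3-fold higher in p53-/- than in WT MEFs under doxorubicin. The dim probe thus had the order of Suv39h1 and the bright one did not.

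Setdb1, which methylates H3K9 with the corepressor TRIM28, had relative signals of 0.715 and 0.532 in WT MEFs and of 0.840 and 0.986 in p53-/- MEFs. The order was again that of Dnmt1, in smaller steps. Its log2 ratio to doxorubicin was -0.43 in WT MEFs, and in p53-/- MEFs 0.23, which turned to -0.07 with the array median as the scale. No comparison of Setdb1 reached 2-fold.

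**Figure D2:**
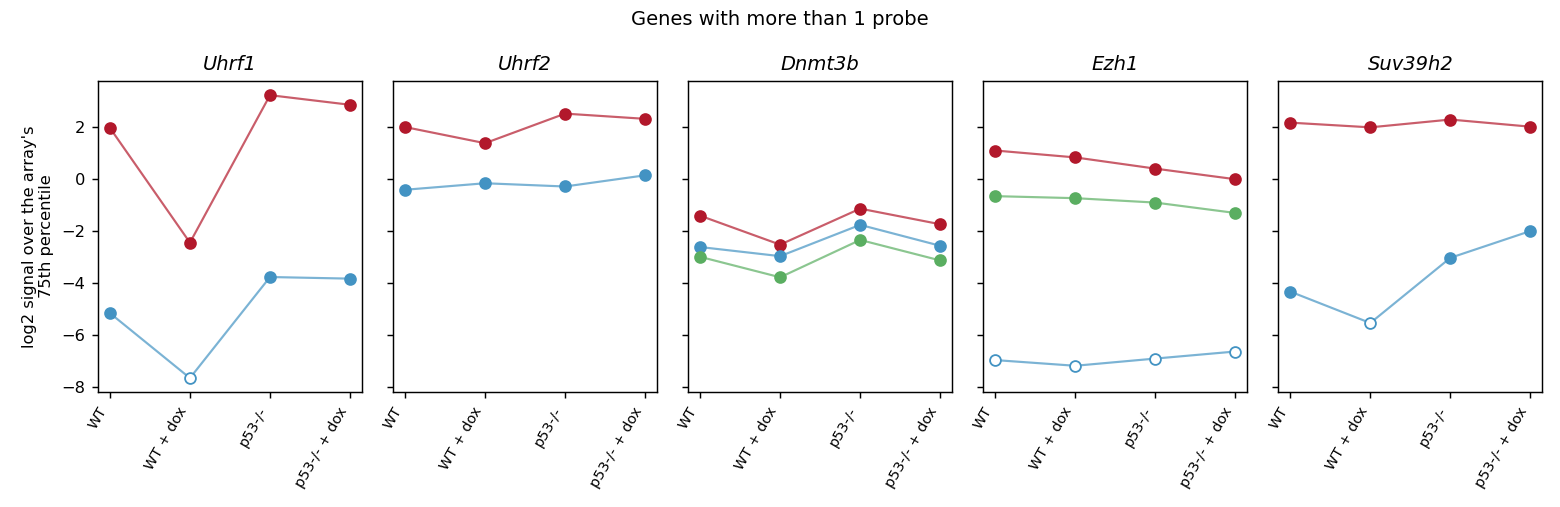
Every probe of the 5 genes that had more than 1 probe, as log2 of the signal over the array's 75th percentile in the 4 conditions. Filled points were well above background and open points were not, and the red line is the probe used for the gene. The 3 probes of Dnmt3b are all lower with doxorubicin in both genotypes but by unequal amounts, while the blue probe of Suv39h2 is lowest in doxorubicin-treated WT MEFs and highest in doxorubicin-treated p53-/- MEFs, where the red one is nearly level.

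Over the 10 genes, 5 (Dnmt1, Dnmt3b, Uhrf1, Ezh2 and Suv39h1) were at least 2-fold lower with doxorubicin in WT MEFs, against 10.4% of 17513 genes measured, and 0 were at least 2-fold higher, against 11.0%. All 10 log2 ratios were below 0, also under each scaling tried, with a median of -1.02 against 0.01 over all genes. In p53-/- MEFs, 0 of 10 genes passed 2-fold in either direction, against 6.89% of 16950 genes lower and 9.24% higher. The median there was -0.24 against 0.00 over all genes, with 7 genes below and 3 above 0.

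**Figure D3:**
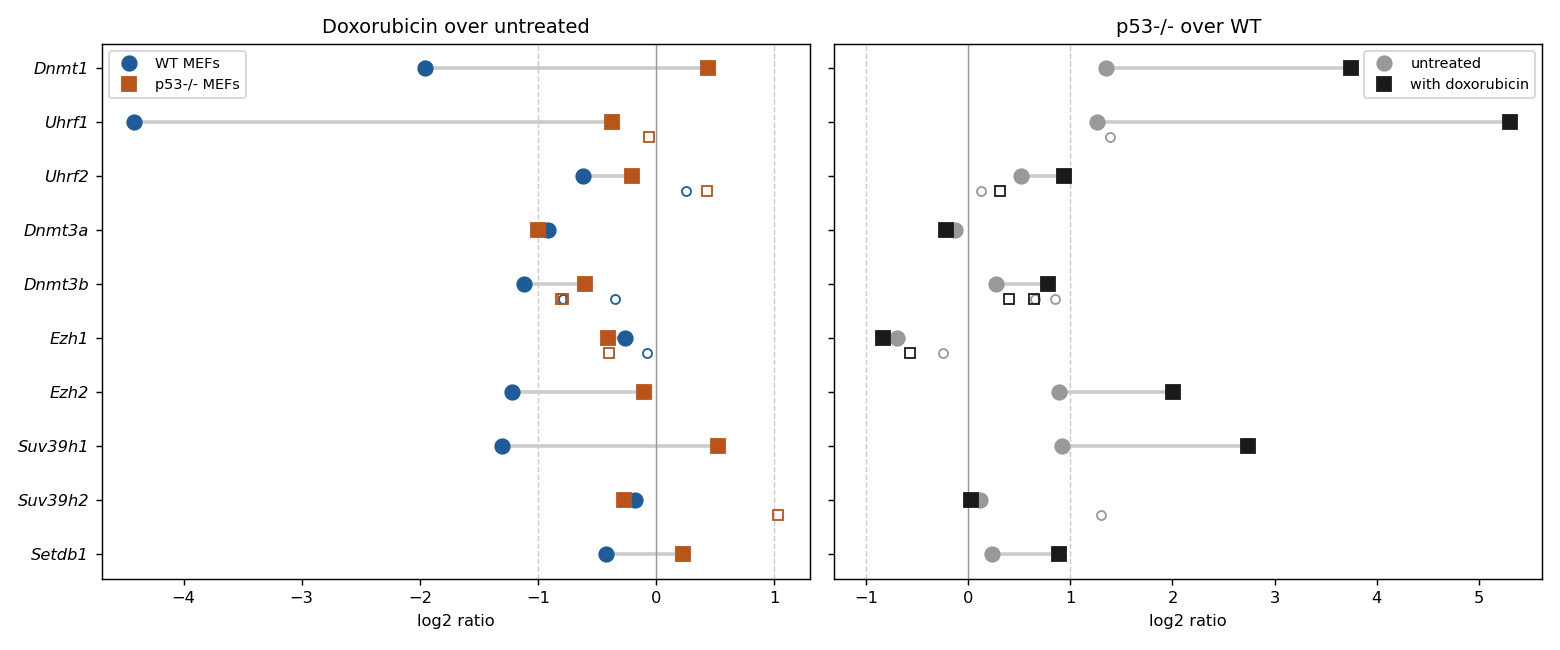
Log2 ratios of the 10 genes for doxorubicin over untreated in each genotype (left) and for p53-/- over WT MEFs without and with doxorubicin (right). Filled symbols are the probe used for a gene, open symbols below them its other probes where well above background on both arrays, and dashed lines mark 2-fold. The gray bars for Uhrf1, Dnmt1, Suv39h1 and Ezh2 are the longest.

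The direct comparison of the genotypes gave 2 genes, Dnmt1 and Uhrf1, that were at least 2-fold higher in untreated p53-/- than in untreated WT MEFs, against 2.15% of 17287 genes. In the same comparison 0 were 2-fold lower, against 2.61%. Under doxorubicin, 4 genes (Dnmt1, Uhrf1, Ezh2 and Suv39h1) were at least 2-fold higher in p53-/- MEFs, against 11.9% of 17888 genes, and 0 were lower, against 10.3%. These comparisons share arrays with those above and are not separate evidence. For the same 4 genes the log2 ratio to doxorubicin was at least 1 lower in WT than in p53-/- MEFs, by -2.40, -4.05, -1.11 and -1.83, against 9.86% of 16513 genes. The difference between the genotypes could not be tested with single arrays. WT MEFs with doxorubicin were the lowest of the 4 conditions for 8 of the 10 genes, against 28.6% of all genes, and for 7 with the array median as the scale. For Suv39h2, one of the 8, that condition was not set apart from the next. The exceptions were Ezh1, which was highest in untreated WT MEFs and lowest in p53-/- MEFs with doxorubicin, and Dnmt3a, whose genotypes were not set apart.

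Dnmt1, Uhrf1, Ezh2 and Suv39h1 are the 4 genes that held an E2F form in a RefSeq window. Among the 10306 genes with a window that were measured on all 4 arrays, 95 of the 1104 whose ratio was at least 1 lower in WT MEFs held such a form (8.61%), and 373 of the other 9202 (4.05%). The other motifs were also found more often among the 1104 genes, TTTGAA in 20.8% against 13.8% and CCAAT in 48.6% against 41.8%, and none of these shares was tested. In WT MEFs the log2 ratio to doxorubicin ranged from -1.12 to -0.18 for the 6 genes without a match and from -4.42 to -1.22 for the 4 with one. The ranges are not separated, since Dnmt3b and Ezh2 at their edges were closer than 2 SDs of repeat spots, and the dim probe of Suv39h2, a gene without a match, was at least 2.04-fold lower.

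**Figure D4:**
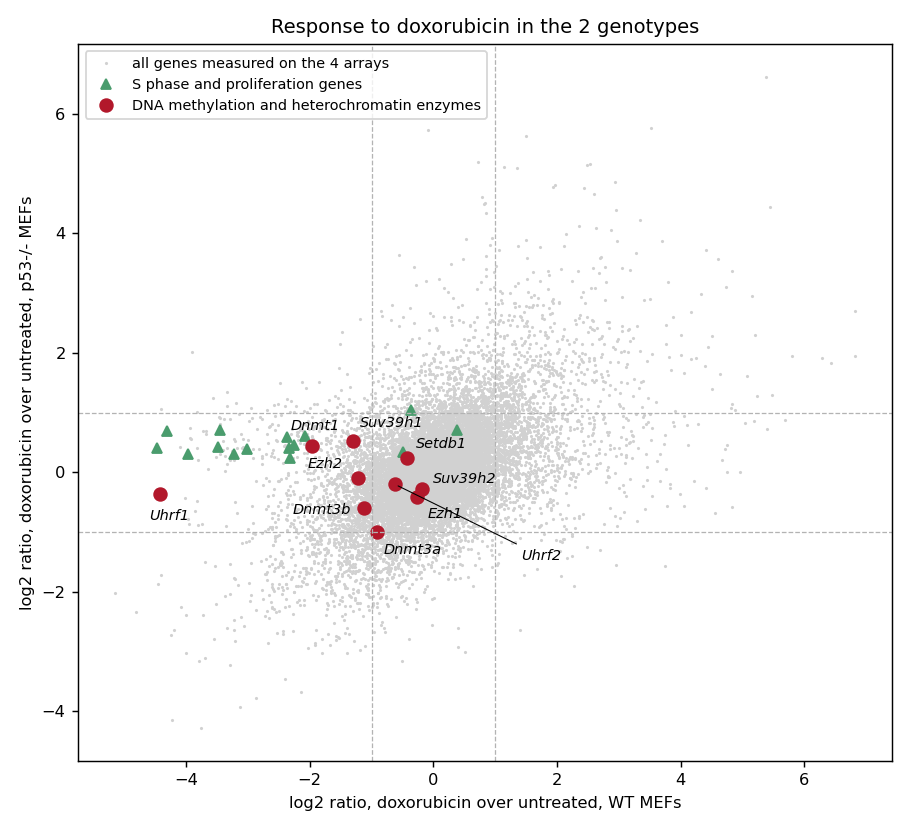
Log2 ratio to doxorubicin in WT MEFs (x) and p53-/- MEFs (y) for the 16513 genes measured on all 4 arrays (gray), the 10 enzymes (red) and 15 S phase and proliferation genes (green triangles), with dashed lines at 2-fold. Uhrf1 lies at the far left beside the green triangles, while Dnmt3a lies on the lower dashed line.

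Genes of S phase and proliferation differed between the arrays along with some of the enzymes. Of 15 such genes, 12 were at least 2-fold lower with doxorubicin in WT MEFs and 0 higher (10.4% and 11.0% over all genes). Their median log2 ratio was -2.37. In p53-/- MEFs 1 was higher and 0 lower (9.24% and 6.89% over all genes), with a median of 0.42, where that of the enzymes was -0.24. Top2a, the topoisomerase of dividing cells, had log2 ratios of -4.47 and 0.40, Tk1, a thymidine kinase, -4.30 and 0.70, and Mki67, the Ki-67 antigen, -3.97 and 0.30. In p53-/- MEFs the largest were Rrm2, a subunit of ribonucleotide reductase, with 1.05 and Mcm3 of the replicative helicase with 0.71. Of 16512 genes compared over the 4 arrays, Mki67 was the nearest to Uhrf1 in pattern (Euclidean distance of centered log2 levels 0.59), followed by Spc24 (0.71) and Fignl1 (0.72). All 3 were lower in WT MEFs with doxorubicin. In p53-/- MEFs Mki67 (0.30) and Fignl1 (0.62) were higher and Spc24 (0.20) was not set apart, whereas Uhrf1 was lower (-0.37). The part of proliferation in the levels of the enzymes was not tested.

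The proteins that work with these enzymes were more mixed. Among 12 readers of methylated DNA and demethylation genes, 1 was at least 2-fold lower in WT MEFs (10.4% of all genes), and in p53-/- MEFs 1 was higher (9.24% of all genes), which is near the share over all genes. The lower one was Hells, a chromatin remodeler needed for DNA methylation, which had relative signals of 0.392 and 0.0490 in WT MEFs and of 0.759 and 1.10 in p53-/- MEFs. It was 8.0-fold lower with doxorubicin in WT MEFs and 1.46-fold higher in p53-/- MEFs, in the order of Dnmt1. The higher one was Mbd1, a reader of methylated CpG (0.62 in WT and 1.14 in p53-/- MEFs, and 1.18 and 1.26 on its other probe). Tdg, a glycosylase of active demethylation, had -0.35 and 0.90 on its brightest probe, and its other 2 probes had -0.35 and -0.34 in p53-/- MEFs. Tet1, a methylcytosine dioxygenase, had 0.43 and -0.61.

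Among 9 partners of PRC2, Phf19, a Polycomb-like subunit, was 2.54-fold lower with doxorubicin in WT MEFs (log2 ratio -1.35, and 0.11 in p53-/- MEFs), and Eed, the reader of trimethylated H3K27, was 2.09-fold higher (1.07 and 0.50). So 1 of the 9 was at least 2-fold lower and 1 higher in WT MEFs, near the shares over all genes (10.4% and 11.0%). Suz12, a core subunit, had -0.95 and 0.31. Core subunits of the same complex thus had ratios of opposite sign in WT MEFs, with Ezh2 and Suz12 below and Eed above 0. In p53-/- MEFs 0 of the 9 passed 2-fold (over all genes, 6.89% were lower and 9.24% higher), and 4 were at least 2-fold higher in p53-/- than in WT MEFs under doxorubicin (11.9% over all genes).

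PRC1 is the complex that binds methylated H3K27 and ubiquitylates histone H2A. Of its 10 measured subunits, Cbx2 (-1.21 and 0.37) and Cbx6 (-1.05 and -0.25) were at least 2-fold lower in WT MEFs, against 10.4% of all genes. In p53-/- MEFs 0 of the 10 passed 2-fold (over all genes, 6.89% were lower and 9.24% higher). In the group of other H3K9 and H4K20 methyltransferases, HP1 proteins and the CAF-1 histone chaperone, 4 of 14 were at least 2-fold lower in WT MEFs and 1 was higher (10.4% and 11.0% over all genes), and in p53-/- MEFs 1 was lower and 1 higher (6.89% and 9.24%). Chaf1a, the large CAF-1 subunit, had the same ratio as Dnmt1 in WT MEFs within the spread of repeat spots (-1.96, with 0.59 in p53-/- MEFs) and was among the 3 nearest of all genes to Dnmt1 in pattern (distance 0.19). Its partner Chaf1b had -1.23 and 0.45. The 3 HP1 genes differed, since Cbx3 (HP1 gamma) had -1.55 and -0.32, Cbx5 (HP1 alpha) -1.09 and 0.09, and Cbx1 (HP1 beta) 2.07 and 3.40.

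Of 10 measured histone demethylases, 0 were at least 2-fold lower and 1 was higher in WT MEFs, and 1 was lower in p53-/- MEFs. Over all genes, 10.4% were lower and 11.0% higher in WT MEFs, and 6.89% were lower in p53-/- MEFs, so these counts are near the shares over all genes. Phf8, a demethylase of H3K9, was the higher one (1.11, and -0.53 in p53-/- MEFs), and Kdm4a, a demethylase of trimethylated H3K9, the lower one (-0.74 and -1.52). Kdm6b, a demethylase of H3K27, had 0.38 and -0.43. The median of the group was -0.14 in WT and -0.43 in p53-/- MEFs.

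**Figure D5:**
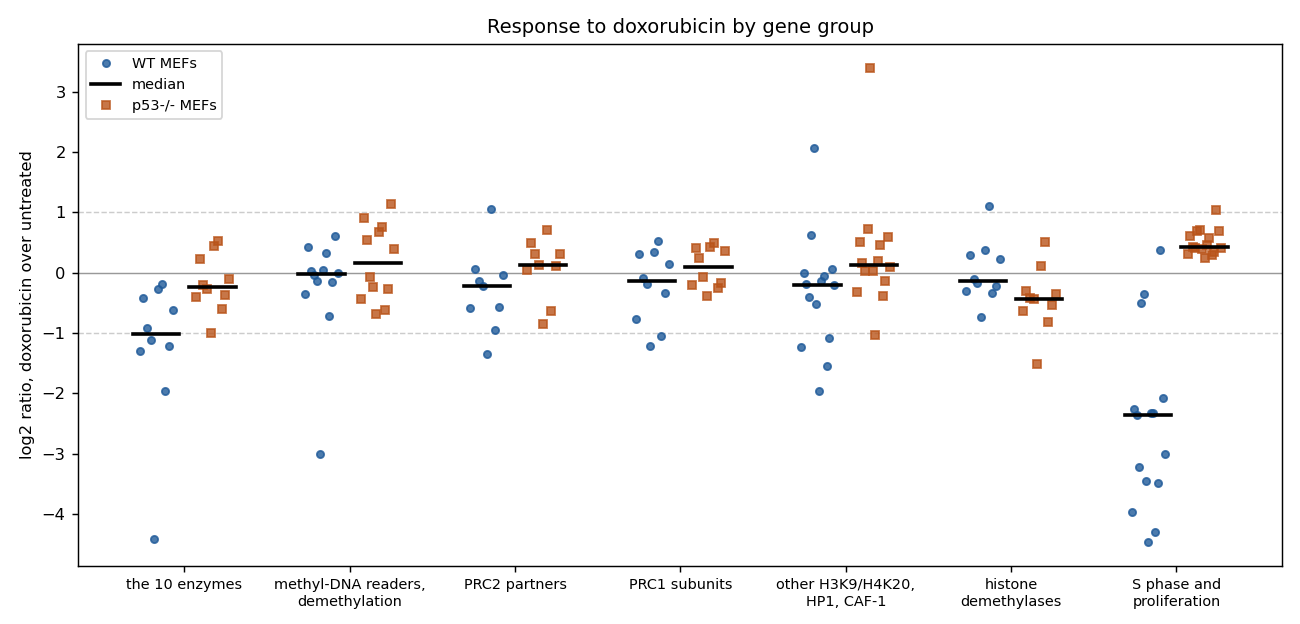
Log2 ratio to doxorubicin in WT MEFs (blue circles) and p53-/- MEFs (orange squares) for each measured gene of 7 groups, with black lines at the medians and dashed lines at 2-fold. The enzymes have a median of -1.02 in WT MEFs, between the S phase and proliferation genes (-2.37) and the other chromatin groups (-0.21 to -0.03).

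Genes known to be silenced by these marks gave few values. Of 15 germline genes with methylated promoters in somatic cells, 9 were not well above background on any array, and 3 were measured on all 4. The other 3, Sycp1, Tex19.1 and Tex11, passed background in a single condition, WT MEFs with doxorubicin, at low relative signals of 0.0340, 0.0599 and 0.0526. In doxorubicin-treated p53-/- MEFs, where they were not called well above background, the relative signals were 0.0274, 0.0206 and 0.0414. The lowest signal called well above background was 87.1 on that array and 44.3 on that of doxorubicin-treated WT MEFs. The calls were thus not made at the same level on the 2 arrays. Against untreated WT MEFs, Tex19.1 was at least 2.19-fold and Tex11 at least 1.93-fold higher, while the bound of 1.24-fold for Sycp1 did not hold against the brightest negative control spot. Tex15 had relative signals of 0.0674 and 0.572 in WT MEFs and of 0.0414 and 0.169 in p53-/- MEFs, so that it was 8.49-fold and 4.08-fold higher with doxorubicin, although its second probe was not well above background on any array. Ddx4, the germ cell helicase also called Vasa, was 3.31-fold lower in WT MEFs (log2 ratio -1.73, and -0.04 in p53-/- MEFs), and Brdt had 0.20 and -0.31. The Ddx4 signal in doxorubicin-treated WT MEFs was 72.6, below the brightest negative control spot of that array (77.5). In untreated p53-/- MEFs, where that spot reached 250.1, the signals of Tex15 (77.9) and Ddx4 (230.7) were below it. These folds of Ddx4, and that of Tex15 in p53-/- MEFs, are limited by this. At the INK4 loci, Cdkn2a, which encodes p16 and p19ARF, had relative signals of 7.93 and 8.07 in WT MEFs and of 12.5 and 12.6 in p53-/- MEFs, and both pairs were within the spread of repeat spots. Cdkn2b, which encodes p15, had 13.7 and 16.6 in WT MEFs and 7.14 and 7.27 in p53-/- MEFs. It was 2.28-fold lower in p53-/- than in WT MEFs under doxorubicin, whereas Cdkn2a passed 2-fold in no comparison on the probe used and, on its other probe, was 2.21-fold higher in p53-/- MEFs under doxorubicin.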

How the data were processed

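Each of the 4 combinations of genotype (WT or p53-/- MEFs) and treatment (no agent or doxorubicin) had 1 one-color Agilent 4x44K v2 mouse array. The authors labeled 200 ng of total RNA with Cy3 and read the arrays with Feature Extraction (10.7.3.1). The deposited processed intensity of each spot was background-subtracted by that program and was not normalized between arrays. The deposited series table held the same intensities (177588 of 177588 values equal within a relative tolerance of 0.0001). The deposited flags, another kind of value coded 0 or 1, mark spots well above background and outliers.

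After removal of outlier spots, log2 intensities were averaged per probe and expressed relative to the 75th percentile of the array. The brightest probe on average represented a gene, and its ratio counted as measured where at least 0.5 of the probe's spots were well above background on both arrays. Where only 1 array was, the other was set to the higher of its own signal and the lowest signal called well above background there (44.3 to 87.1). Among 153 negative control spots per array, the brightest reached 77.5 to 250.1. Precision is limited by the number of arrays, which allowed no p-value. RefSeq tables (GRCm38.p6) named 26055 probes by accession, 3195 by symbol and 930 by synonym, and 9249 kept the name in the file. Positions of probes come from the scanner files and refer to mm9. Promoter sequences are RefSeq's.

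Named genes were the 10 members, Trp53, up to 3 genes per list with the largest ratios in WT MEFs (and in p53-/- MEFs where the genotypes differed by at least 2-fold) and the 3 nearest in pattern to the member of widest range. Cbx5, Chaf1a's distance to Dnmt1, and the ratios of Thy1, Col1a1 and Vim were added after their values were seen. A few genes that this rule picks are not reported here. The members and lists were chosen with earlier results of these data known. The alternatives replaced the percentile by the array median or by quantile normalization, the background correction by normexp (limma 3.58.1 in R 4.3.3, offset 50), the filter by none or by one over all 4 arrays, the brightest probe by the average over probes, the scanner files by the deposited table, and the threshold by 1.5-fold or 3-fold. Steps were tested on simulated arrays. Python 3.11.15 with numpy 2.4.6, pandas 2.3.3 and matplotlib 3.10.9 was used.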

Additional observations from a re-analysis of the deposited data

Results flagged for a closer look

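Dnmt1, Suv39h1 and Setdb1 stood out because the log2 ratio to doxorubicin was below 0 in WT MEFs and above 0 in p53-/- MEFs, in each case by more than 2 SDs of repeat spots. The WT ratio minus the p53-/- ratio was -2.40 for Dnmt1, -1.83 for Suv39h1 and -0.66 for Setdb1. The difference was not tested, since each condition had 1 array. With the array median as the scale, the p53-/- ratio was 0.14 for Dnmt1, 0.23 for Suv39h1 and -0.07 for Setdb1, so that Setdb1 no longer had opposite signs.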

How the results depend on the processing

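Under quantile normalization, with dim probes kept, with a filter over all 4 arrays and with the deposited table, all 40 log2 ratios of the 10 genes moved by less than the SD of 0.11 between repeat spots. Normexp moved 8 of them, and averaging over probes moved 18, with Suv39h2 reaching 1.78 for p53-/- over WT MEFs under doxorubicin. Scaling to the array median put the median ratio of all genes to doxorubicin at -0.27 in WT and -0.30 in p53-/- MEFs, where it was 0.01 and 0.00. The median of the 10 genes was then -1.29 in WT MEFs and -0.54 in p53-/- MEFs, and Dnmt3a passed 2-fold in both genotypes, so that 1 gene was 2-fold lower in p53-/- MEFs. With it, the share of higher among all 2-fold calls was 32.1% instead of 51.4% in WT MEFs and 31.3% instead of 57.3% in p53-/- MEFs. Averaging over probes moved the medians of the 10 genes to -0.83 (doxorubicin in WT MEFs), 0.0058 (doxorubicin in p53-/- MEFs), 0.65 (p53-/- over WT MEFs, untreated) and 1.34 (under doxorubicin). The average also took in signals not well above background, which limits it. These were an Ezh1 probe on every array and the dim probes of Uhrf1 and Suv39h2 in doxorubicin-treated WT MEFs. Dnmt3b lost its 2-fold call with normexp (-0.89) and with the mean of its probes (-0.75).

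At 3-fold, 2 genes were lower with doxorubicin in WT MEFs and 0 were higher in untreated p53-/- MEFs. At 1.5-fold, 7 genes were lower with doxorubicin in WT MEFs and 2 in p53-/- MEFs. For p53-/- over WT MEFs at 1.5-fold, 4 were higher and 1 lower without doxorubicin, and 7 were higher and 1 lower with it. The shares over all genes given above hold for 2-fold only. The counts at 1.5-fold and 3-fold therefore show the effect of the threshold and are not set against a share. No paired analysis was possible because each condition had 1 array. A block for the slide was not fitted because there was 1 slide, and leaving out an array would empty a condition. Signals near those of negative control spots limit the dim probes of Uhrf1 and Suv39h2.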
